A study of Mus musculus with 30 samples.

Results

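Zfp934, a zinc finger gene of mouse chromosome 13, was expressed at clearly separated levels in 30 mammary tumours, and the 14 tumours below 3.1 RPKM were compared with the 16 tumours at or above it. RPKM counts reads relative to the length of the transcript and the size of the library. The members of each set were selected on the measured Zfp934 values, for which the transcript row with the highest mean was used (the gene has 2 rows in the deposited table), and the difference in Zfp934 is therefore a description without a test. All other genes were compared between the Zfp934-low and the Zfp934-high tumours, with the genes of chromosome 13 and those of the other chromosomes counted apart.

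Each tumour came from 1 animal of a backcross. Mice of the wild-derived inbred strain MOLF were crossed with PyMT mice, which carry the polyoma middle T antigen, a viral oncogene that drives mammary tumours, and the offspring were crossed to the inbred strain FVB. Both sets of tumours shared this origin, and the labels give no treatment, age, stage or genotype for any animal, nor the promoter of the transgene. Tumours are named by the number of the animal. Poly-A selected RNA of each tumour was sequenced, and in bulk RNA fewer cells of a type and less RNA per cell cannot be told apart.

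C2H2 zinc finger proteins bind DNA through a row of short loops, each holding a zinc ion between a pair of cysteines and a pair of histidines. Many of the mouse genes for such proteins lie in clusters of similar copies, made by repeated duplication, and differ between mouse strains. Those that also carry a KRAB domain recruit Trim28, a scaffold for enzymes that silence chromatin, and are best known for repressing transposable elements. In a backcross, neighbouring genes tend to be inherited together because few crossovers separate them, whereas genes on different chromosomes are inherited independently.

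Zfp934 and the nearby Zfp808 share long stretches of coding sequence, so a read from such a stretch cannot be assigned to 1 of the genes. The sequences below, from GENCODE vM21 on GRCm38 and written 5′ to 3′ along each coding strand, show the longest run of identical coding bases, in capitals, with 15 flanking bases on each side in lower case. The run is 200 bases long and covers coding bases 165 to 364 of Zfp934, on the minus strand of chromosome 13, and 261 to 460 of Zfp808, on the plus strand.
Zfp934: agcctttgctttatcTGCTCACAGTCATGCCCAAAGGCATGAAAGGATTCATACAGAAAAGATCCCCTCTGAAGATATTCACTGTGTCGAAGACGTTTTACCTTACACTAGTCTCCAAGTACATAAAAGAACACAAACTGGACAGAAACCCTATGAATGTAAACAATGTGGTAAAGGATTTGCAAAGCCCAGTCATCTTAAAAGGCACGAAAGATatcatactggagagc
Zfp808: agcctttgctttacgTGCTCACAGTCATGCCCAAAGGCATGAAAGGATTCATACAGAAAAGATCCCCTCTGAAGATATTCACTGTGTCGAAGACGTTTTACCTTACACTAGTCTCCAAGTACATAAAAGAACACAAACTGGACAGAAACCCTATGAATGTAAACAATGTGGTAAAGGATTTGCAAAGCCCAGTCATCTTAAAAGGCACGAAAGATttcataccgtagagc
The longest identical run of Zfp934 with the adjacent gene Zfp935, also on the minus strand, is 74 bases long, from coding base 68 to 141 of Zfp934 and 164 to 237 of Zfp935.
Zfp934: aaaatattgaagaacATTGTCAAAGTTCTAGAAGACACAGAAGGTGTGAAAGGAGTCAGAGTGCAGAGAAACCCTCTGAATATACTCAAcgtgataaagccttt
Zfp935: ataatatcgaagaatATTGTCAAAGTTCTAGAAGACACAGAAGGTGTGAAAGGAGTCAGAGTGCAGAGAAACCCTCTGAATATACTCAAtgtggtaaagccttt
The coding sequence of Zfp934 is 1323 bases long and holds 11 copies of the C2H2 pattern, against 22 copies in 2259 bases of Zfp808 and 8 copies in 1059 bases of Zfp935. Of the 36-base windows of the Zfp934 transcript, 48.3% also occurred in transcripts of other genes, and 41.0% occurred in Zfp808. With 75-base windows the shares were 25.1 and 22.4%. Neither the read length nor the treatment of reads with several matches is stated in the sources used here.

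Zfp934 ranged between 1.32 and 2.54 RPKM in the 14 low tumours, with a median of 1.76, against 4.03 to 6.88 RPKM with a median of 4.46 in the 16 high tumours. The means were 1.78 ± 0.357 RPKM (SD, n = 14) in low tumours and 4.80 ± 0.772 RPKM (SD, n = 16) in high tumours, and the median of the high tumours was 2.53 times that of the low ones. The tumour just below the threshold was that of animal 4461 at 2.54 RPKM, next to animal 3939 at 2.48 RPKM, and the tumour just above it was that of animal 4038 at 4.03 RPKM. No tumour lay between 2.54 and 4.03 RPKM. The other 12 low tumours were at 1.91 RPKM or less.

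**Figure D1:**
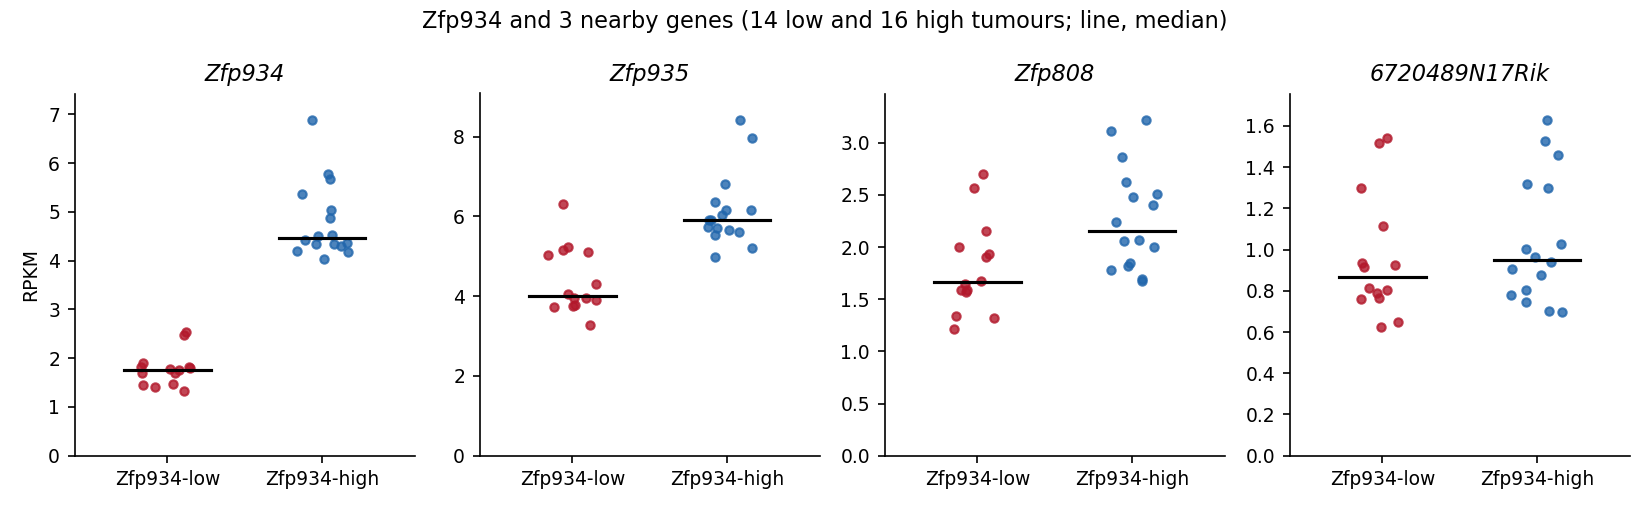
RPKM of Zfp934 and of 3 nearby genes, Zfp935, Zfp808 and 6720489N17Rik, with each tumour as a point, the 14 Zfp934-low tumours left and the 16 Zfp934-high tumours right, and the median as a line. The sets are separate for Zfp934, which defined them, overlap in part for Zfp935 (medians 4.01 and 5.91 RPKM) and overlap widely for 6720489N17Rik (medians 0.865 and 0.951 RPKM).

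Read depth, estimated from the spacing of low values, ranged between 42.7 and 197 M reads over the 30 libraries and fell into 14 deep and 16 shallow ones. The low tumours held 6 deep and 8 shallow libraries and the high tumours 8 of each. The mean insert size was 251 ± 20.6 bases in low tumours and 246 ± 18.7 bases in high tumours (SD, n = 14 and 16). The library of animal 4150 stood apart with the highest summed RPKM, and that of animal 4511 had an unclear depth. Both were high tumours. The 8 luminal epithelial markers were expressed in each of the 30 tumours, with a summed level of 1710 to 3180 RPKM in low tumours and 1420 to 2650 RPKM in high tumours. No gene of the 11 lists of epithelial, immune, stromal, endothelial, fat, muscle, milk and proliferation markers passed the threshold of 0.05 after adjustment. The 5 skeletal muscle markers varied widely, with a summed level of 8.06 to 10600 RPKM (median 196) in low tumours and 4.08 to 3870 RPKM (median 69.4) in high tumours.

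Of 13610 genes tested, 13 differed between Zfp934-low and Zfp934-high tumours at an adjusted p under 0.05 (limma, adjusted by Benjamini-Hochberg over the 13610), which is 0.0955% of them. Of the 463 tested chromosome 13 genes 8 passed (1.73%), against 5 of 13147 on the other chromosomes (0.038%). Among those 5, Raet1d, Raet1e and H60b lie next to each other on chromosome 10. Raet1d and Raet1e were tested only through their level in high tumours, with means of 0.747 and 0.893 RPKM in low tumours. Of the 13 genes, 11 were lower in the low tumours (0.0808% of those tested) and 2 were higher (0.0147%). After quantile normalization 11 genes passed, 8 lower and 3 higher. No gene had values that did not overlap between the sets. At an unadjusted p under 0.05 there were 134 of 463 genes on chromosome 13 (28.9%) and 1924 of 13147 elsewhere (14.6%), against 15.1% of all genes. Over all genes, 9.92% were lower and 5.2% higher in low tumours at this unadjusted p. The shares on the other chromosomes lay between 8.85% on chromosome 11 and 18.9% on chromosome 7.

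**Figure D2:**
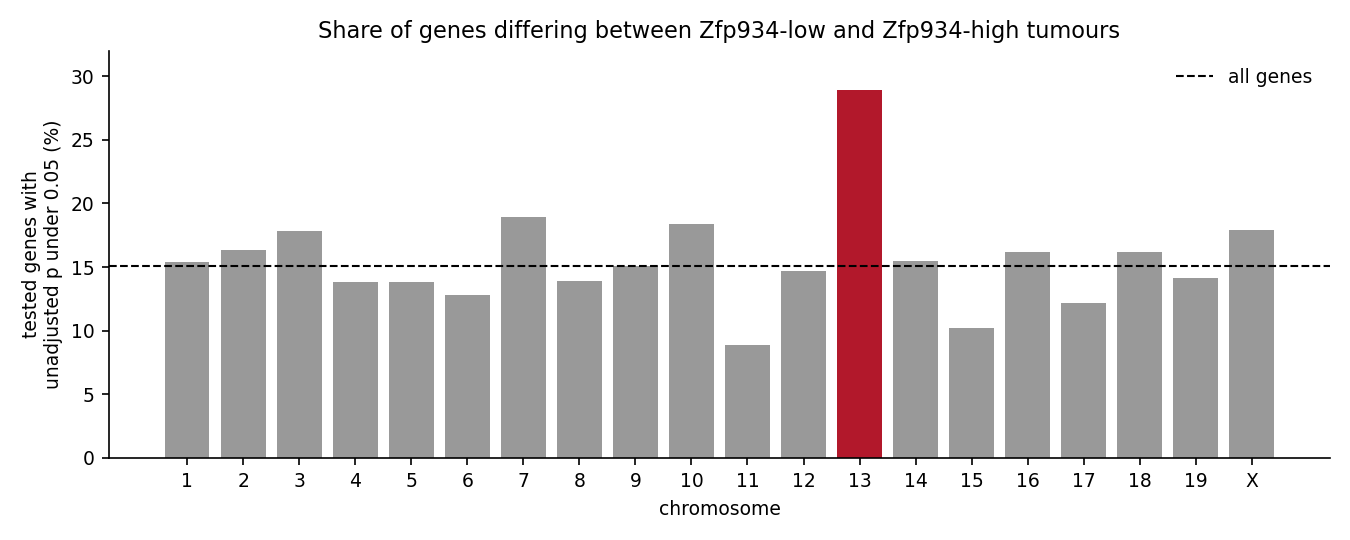
Share of tested genes with an unadjusted p under 0.05 between Zfp934-low and Zfp934-high tumours, in percent, for each chromosome, with the share over all genes as a dashed line. Chromosome 13, in red, stands at 28.9%, against 18.9% on chromosome 7, the next highest, and 15.1% over all genes.

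The 8 chromosome 13 genes all lay on the same side of Zfp934, before it in the order of genes of the RefSeq table, at positions between -1 (Zfp935) and -368 (H4c9), counted in genes from Zfp934. More of the tested genes lay before Zfp934 than after it. In particular, 81 lay more than 300 genes before it, and none lay as far after it. After Zfp934, the smallest adjusted p were 0.0662 for Zfp825 and 0.0703 for both Rsl1 and the phosphodiesterase gene Pde8b (limma, Benjamini-Hochberg), at 92, 31 and 161 genes. Of the tested genes within 20 genes of Zfp934, 5 of 6 before it and 5 of 14 after it had an unadjusted p under 0.05. The 5 before it include Zfp935 and Zfp808, which share sequence with Zfp934, the gene that set the split. They also include Ctsll3, which was tested only through its level in high tumours, with means of 0.794 RPKM in low and 1.22 RPKM in high tumours. The share with an unadjusted p under 0.05 was 37% among the 81 tested genes farthest before Zfp934 and 26.2% among the 65 farthest after it. Genes below this unadjusted p thus lay along the whole order of the chromosome. Of the 134 chromosome 13 genes with an unadjusted p under 0.05, 104 were lower in the low tumours, against 1350 of 2058 over all genes.

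**Figure D3:**
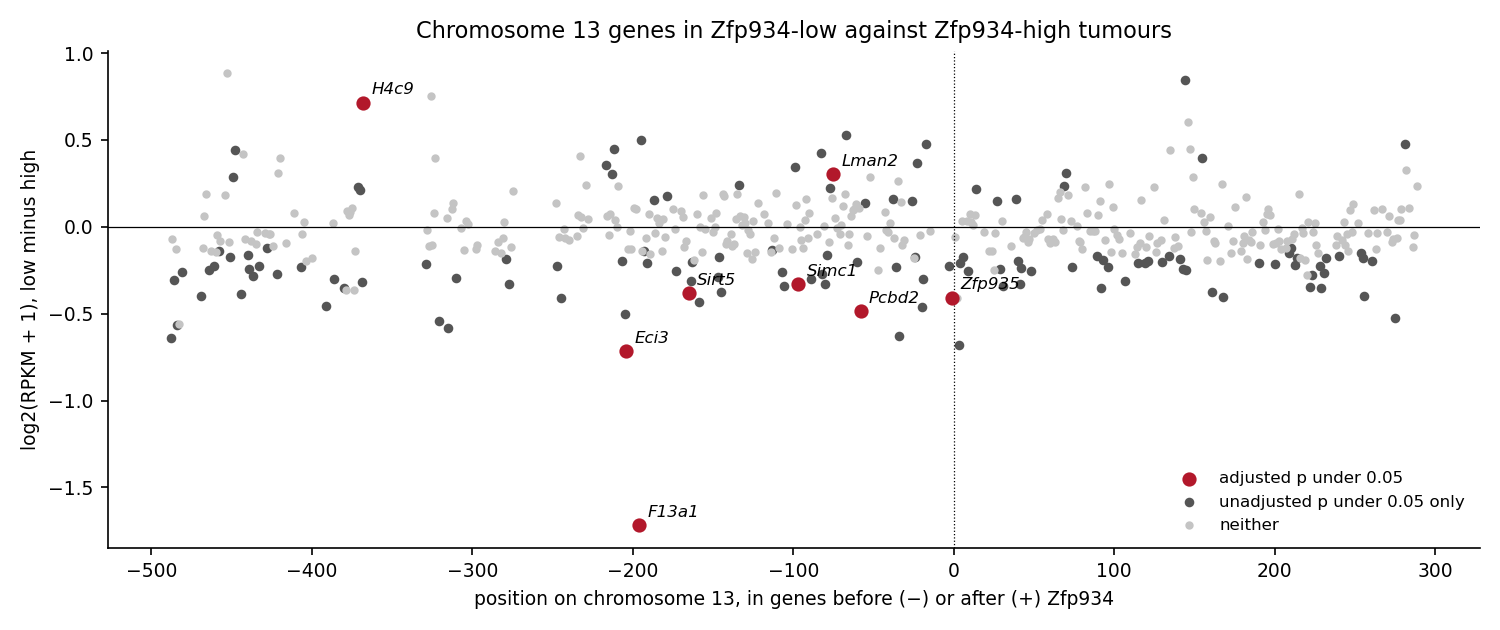
Difference in log2(RPKM + 1), low minus high tumours, of each tested chromosome 13 gene by its position in genes before or after Zfp934 (dotted line), with genes at an adjusted p under 0.05 in red and named, and genes at an unadjusted p under 0.05 in dark grey. The named genes lie before Zfp934, with H4c9 and Lman2 above 0 and the other 6 below it, down to -1.72 for F13a1.

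Zfp935, the zinc finger gene next to Zfp934, was lower in low tumours, with 3.27 to 6.31 RPKM and a median of 4.01, against 4.98 to 8.41 RPKM and a median of 5.91 in high tumours. The difference was -0.41 ± 0.07 on the log2(RPKM + 1) scale (SE; adjusted p = 0.0125, limma, Benjamini-Hochberg). The low tumours of animals 3939, 4020, 4142, 4461 and 4638 were nearer to the median of the high ones, and the sets overlapped between 4.98 and 6.31 RPKM. Of the 36-base windows of Zfp935, 27.7% also occurred in other genes, with 16.7% in Gm36298, 7.79% in Zfp808 and 6.11% in Zfp934. Whether shared reads entered the difference in Zfp935 was not tested. Zfp808, at 3 genes before Zfp934 and with far more shared sequence, had 1.22 to 2.70 RPKM in low tumours and 1.68 to 3.22 RPKM in high tumours, and its difference of -0.23 ± 0.08 did not pass (adjusted p = 0.21, limma). The gene next to Zfp934 on the other side, 6720489N17Rik, had a difference of -0.06 ± 0.08 (adjusted p = 0.774, limma).

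The remaining nearest genes did not pass the threshold. Ctla2b, for a protein like the propeptide of cysteine proteases, had a median of 3.45 RPKM in low tumours and 2.08 RPKM in high tumours, with a difference of 0.48 ± 0.11 (adjusted p = 0.0727, limma). Of the 36-base windows of Ctla2b, 88.1% also occurred in other genes, with 86.6% in Gm49391. Ctla2a, the neighbour and close copy of Ctla2b, had medians of 9.27 and 9.82 RPKM in low and high tumours and an adjusted p of 0.952 (limma). Ctsll3, a cathepsin-like gene, had medians of 0.683 RPKM in low and 1.06 RPKM in high tumours, with an adjusted p of 0.226 (limma). Fbp1, a gluconeogenic enzyme, had medians of 2.07 and 4.23 RPKM in low and high tumours (adjusted p = 0.249, limma), and its neighbour Fbp2 had medians of 2.04 and 2.31 RPKM in low and high tumours (adjusted p = 0.539, limma). Fancc, of the Fanconi anaemia DNA repair pathway, and Zfp367, a zinc finger gene at 9 genes after Zfp934, had differences of -0.21 ± 0.07 and -0.25 ± 0.07, with adjusted p of 0.169 and 0.101 (limma). Ptch1, the hedgehog receptor, had medians of 5.78 RPKM in low and 5.22 RPKM in high tumours and an adjusted p of 0.942 (limma).

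H4c9, a gene for the core histone H4, was the chromosome 13 gene with the smallest adjusted p. It was higher in low tumours, with 9.60 to 17.8 RPKM and a median of 12.2, against 4.34 to 14.1 RPKM and a median of 7.09 in high tumours. The difference was 0.71 ± 0.11 on the log2(RPKM + 1) scale (adjusted p = 0.00206, limma). All 14 low tumours lay nearer to their own median, and among the high ones animals 4357 at 10.7 RPKM and 4488 at 14.1 RPKM lay within the range of the low set. Messages of most histone genes have no poly-A tail, so this library type captures them in part, and 33.4% of the 36-base windows of H4c9 also occurred in other histone H4 genes.

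Lman2, a lectin that carries glycoproteins between the endoplasmic reticulum and the Golgi, was the other gene higher in low tumours. It had 55.4 to 73.5 RPKM with a median of 66.2 in low tumours, against 41.9 to 64.1 RPKM with a median of 51.8 in high tumours. The difference was 0.30 ± 0.06 (adjusted p = 0.0125, limma). It was the smallest difference of the 13 genes, in the gene with the highest medians, and the high tumours of animals 4164, 4488, 4492, 4511, 4516 and 4547, at 56.2 to 64.1 RPKM, lay within the range of the low set.

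Eci3, Sirt5, Pcbd2 and Simc1 were lower in low tumours. Eci3, an enzyme of fatty acid oxidation, had 2.0 to 8.22 RPKM with a median of 3.74 in low tumours, against 3.37 to 11 RPKM with a median of 6.79 in high tumours (-0.72 ± 0.14, adjusted p = 0.0333, limma). Sirt5, which removes succinyl and related groups from mitochondrial proteins, had 8.73 to 14.9 RPKM with a median of 10.9 in low tumours, against 9.88 to 19.7 RPKM with a median of 15.3 in high tumours (-0.38 ± 0.08, adjusted p = 0.0482, limma). Pcbd2, a pterin dehydratase, had 16.3 to 34.9 RPKM with a median of 21.1 in low tumours, against 24.1 to 52.4 RPKM with a median of 27.4 in high tumours (-0.49 ± 0.10, adjusted p = 0.0482, limma). In Pcbd2 the overlap came from 1 low tumour, that of animal 3871 at 34.9 RPKM, since the other low tumours reached no more than 23.3 RPKM. Simc1, for a protein that binds SUMO, had 2.20 to 3.46 RPKM with a median of 2.65 in low tumours, against 3.12 to 6.12 RPKM with a median of 3.6 in high tumours (-0.33 ± 0.07, adjusted p = 0.0333, limma).

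F13a1, the catalytic subunit of the clotting factor that cross-links fibrin, had the largest difference of the 13 genes on the log2(RPKM + 1) scale. With 0.1 added to each RPKM in place of 1, Raet1d differed by -1.89 and F13a1 by -1.84. F13a1 had 2.34 to 81.0 RPKM with a median of 8.47 in low tumours, against 9.99 to 125 RPKM with a median of 34.3 in high tumours (-1.72 ± 0.35, adjusted p = 0.0344, limma). Animals 4020 at 81.0 RPKM and 3273 at 27.9 RPKM were the low tumours on the side of the high ones, and animals 4150, 4488 and 4438 were the high tumours on the side of the low ones. F13a1 is known to be expressed by macrophages. The 7 macrophage markers together had 340 to 800 RPKM with a median of 519 in low tumours and 244 to 816 RPKM with a median of 435 in high tumours. None of the 7 passed the threshold, and the part of macrophages in the F13a1 difference was not tested.

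**Figure D4:**
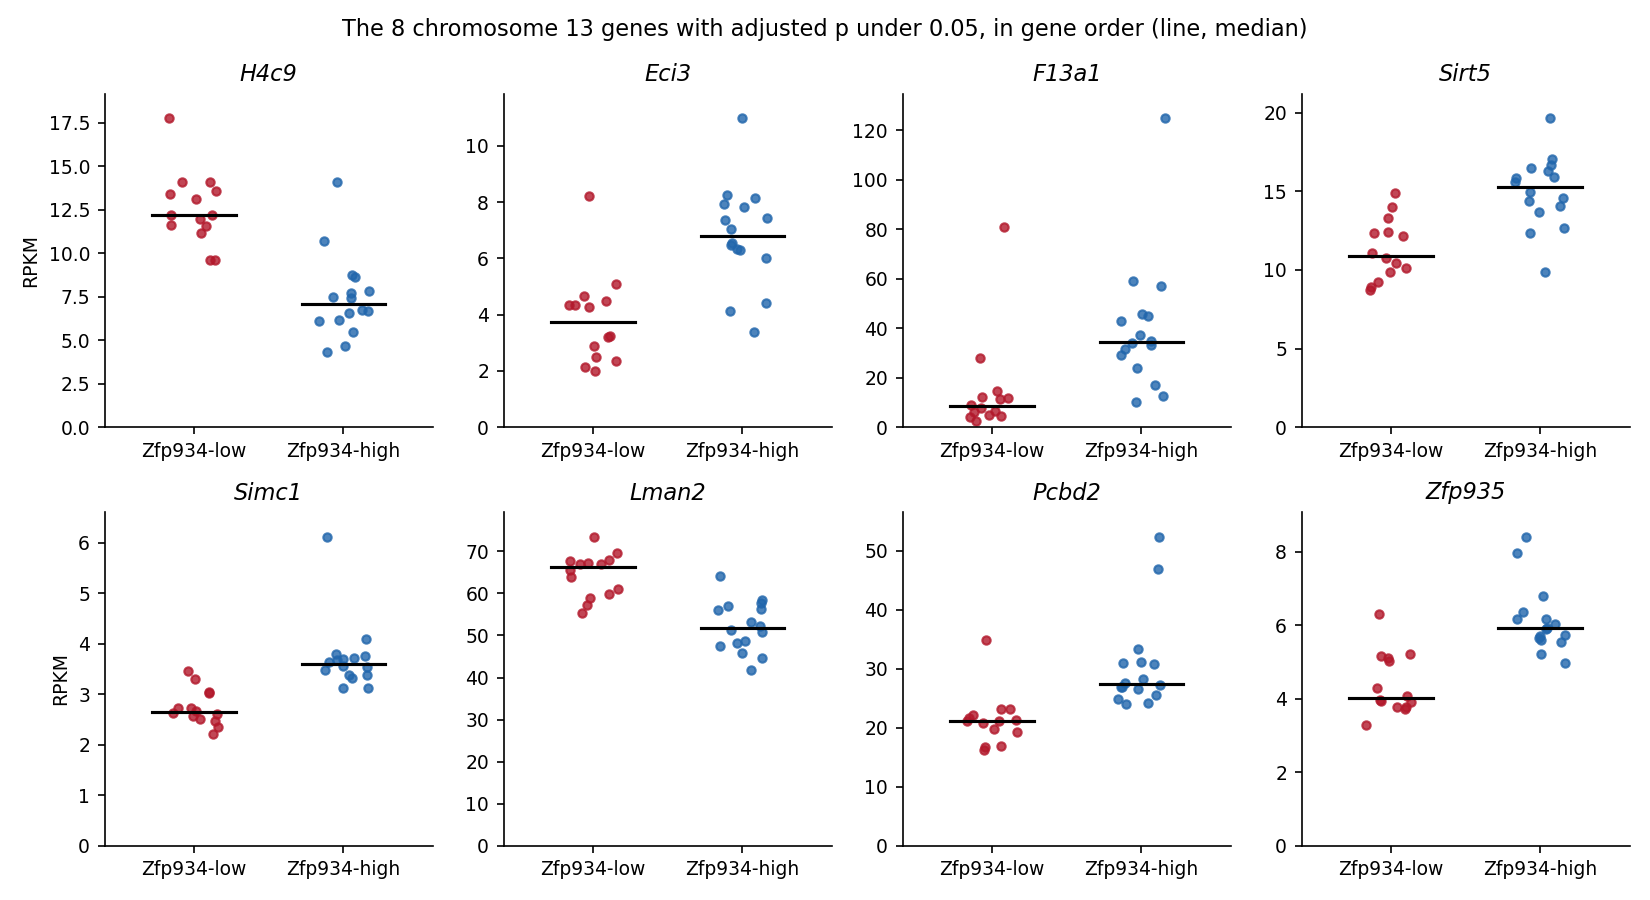
RPKM of the 8 chromosome 13 genes at an adjusted p under 0.05, in gene order, with each tumour as a point, the 14 Zfp934-low tumours left and the 16 Zfp934-high tumours right, and the median as a line. H4c9 and Lman2 are higher in the low tumours (medians 12.2 and 7.09 RPKM for H4c9 in low and high tumours), the other 6 are lower, and every pair of sets overlaps.

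The tumours that crossed to the other side differed between genes, and some crossed for several genes at once. The side was set by the midpoint of the medians of the low and high tumours. The low tumour of animal 4020 lay on the side of the high ones for 5 of the 8 genes, namely Eci3, F13a1, Simc1, Lman2 and Zfp935, and on its own side for H4c9, Sirt5 and Pcbd2. The low tumour of animal 3871 crossed for Eci3, Sirt5, Lman2 and Pcbd2. The high tumour of animal 4488 crossed for H4c9, Eci3, F13a1 and Sirt5 and stayed on its own side for Simc1, Lman2, Pcbd2 and Zfp935. For 5 low and 9 high tumours, none of the 8 genes crossed.

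Zinc finger genes were listed by symbol, as those whose symbol begins with Zfp, Rsl1 or Zkscan, so that the noncoding Zfp85os is in the list and Zscan12, a C2H2 gene under another symbol, is not. On chromosome 13 the list held 39 genes besides Zfp934, of which 29 averaged 1 RPKM or more and were tested. Of these, 1 passed after adjustment, Zfp935 (1.73% of all chromosome 13 genes passed). At an unadjusted p under 0.05 there were 11 lower and 1 higher in low tumours, 41.4% of the 29. The share was 28.1% among the other 434 chromosome 13 genes and 35.8% among the 285 tested zinc finger genes of other chromosomes. The 11 include Zfp935 and Zfp808, which share sequence with Zfp934, the gene that set the split. Zfp708, 1 of the 11, was tested only through its level in high tumours, with means of 0.92 RPKM in low and 1.29 RPKM in high tumours. Zscan12 had a difference of -0.23 ± 0.05 (adjusted p = 0.0813, limma). The difference was negative for 24 of the 29, with a median of -0.11, against -0.05 for the other chromosome 13 genes and -0.02 for all genes. Rsl1, a repressor of sexually dimorphic genes in mouse liver, had a median of 1.29 RPKM in low and 1.88 RPKM in high tumours (-0.34 ± 0.08, adjusted p = 0.0703, limma). Zfp825 had a median of 8.29 RPKM in low and 11.8 RPKM in high tumours (-0.35 ± 0.08, adjusted p = 0.0662, limma). Zfp874a and Zfp65, in the cluster that also holds Rsl1, had differences of -0.33 ± 0.09 and -0.26 ± 0.07, each with an adjusted p of 0.101 (limma). Zfp429 of the same cluster was the only 1 of the 12 with a positive difference, 0.16 ± 0.07 (adjusted p = 0.286, limma). Sequence shared among the members of this cluster was not measured, and how reads were divided among similar copies is uncertain. In the deep libraries alone, 6 of the 29 had an unadjusted p under 0.05, against 14.3% of all tested chromosome 13 genes. The shallow libraries alone gave 12 of the 29, against 22.9% of all tested chromosome 13 genes.

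Among the tested zinc finger genes elsewhere in the genome, 210 of 285 had a negative difference, against 7585 of all 13610 genes. Of 346 such genes, listed by symbol and not by type of zinc finger, 285 were tested. After adjustment 2 passed, Zfp932 and Zfp280d, against 0.038% of all genes tested on other chromosomes. How many of the 285 averaged 1 RPKM or more only through the high tumours was not counted. At an unadjusted p under 0.05, 87 were lower and 15 higher in low tumours, 35.8% of the 285, against 15.1% of all genes, and the median difference was -0.09. In the deep libraries alone 32 of the 285 had an unadjusted p under 0.05, against 1306 of all 13610 genes, which are similar shares. In the shallow libraries alone there were 60 of the 285, against 1479 of the 13610. Zfp932, on chromosome 5, encodes a protein known in the mouse to bind endogenous retroviruses. It had 8.21 to 13.9 RPKM with a median of 9.57 in low tumours, against 10.5 to 21.5 RPKM with a median of 13.5 in high tumours (-0.44 ± 0.09, adjusted p = 0.0333, limma). Of its 36-base windows, 62.1% also occurred in its copy Gm15446. Zfp280d, on chromosome 9, had 8.14 to 13.9 RPKM with a median of 10.7 in low tumours, against 11.2 to 17.2 RPKM with a median of 13.9 in high tumours (-0.33 ± 0.07, adjusted p = 0.0482, limma).

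The partners through which KRAB zinc finger proteins act were looked at as a list of 13 corepressor genes, all tested. None passed after adjustment by limma, and 6 had an unadjusted p under 0.05, each lower in low tumours, which is 46.2% against 15.1% of all genes. In the deep libraries alone there were 2 of 13, against 1306 of all 13610 genes. In the shallow libraries alone there were 4 of 13, against 1479 of the 13610. The median difference of the 13 was -0.15. Morc3, a chromatin ATPase, had the smallest adjusted p, with 10.5 ± 1.51 RPKM in low tumours and 12.5 ± 1.14 RPKM in high tumours (SD, n = 14 and 16; -0.24 ± 0.06, adjusted p = 0.0963, limma). Setdb1, the methyltransferase that Trim28 recruits, had 19.99 ± 2.66 RPKM in low tumours and 22.5 ± 2.02 RPKM in high tumours (adjusted p = 0.198, limma). Trim28 itself had 140 ± 26.9 RPKM in low tumours and 127 ± 24.8 RPKM in high tumours, with a difference of 0.15 ± 0.10 (adjusted p = 0.475, limma).

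The remaining 3 genes of other chromosomes, Raet1e, H60b and Raet1d, lie next to each other on chromosome 10 and encode ligands of NKG2D, the receptor by which natural killer cells and some T cells recognise stressed and transformed cells. All 3 were lower in low tumours. Raet1d had 0.13 to 2.40 RPKM with a median of 0.66 in low tumours, against 0.776 to 4.44 RPKM with a median of 2.39 in high tumours (-1.04 ± 0.16, adjusted p = 0.00206, limma). Raet1e had 0.143 to 2.98 RPKM with a median of 0.764 in low tumours, against 0.788 to 5.09 RPKM with a median of 2.89 in high tumours (-1.08 ± 0.17, adjusted p = 0.00266, limma). Raet1d and Raet1e reached the mean of 1 RPKM needed for the test only through the high tumours, since their means were 0.747 and 0.893 RPKM in low tumours, against 2.51 and 2.96 RPKM in high tumours. With no filter on low values their adjusted p were 0.00329 and 0.00497 (limma). H60b had 0.988 to 11.9 RPKM with a median of 2.72 in low tumours, against 2.72 to 17.7 RPKM with a median of 9.13 in high tumours (-1.35 ± 0.24, adjusted p = 0.0125, limma).

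A set of 4 tumours crossed for all 3 of these genes. Animals 4638 and 3939 were the low tumours on the side of the high ones, at 11.9 and 5.41 RPKM of H60b. Animals 3654 and 4315 were the high tumours on the side of the low ones for the 3 genes, at 4.68 and 2.72 RPKM of H60b. None of the 8 chromosome 13 genes crossed in animals 3654 and 4315, whereas 1 of them, Zfp935, crossed in animals 3939 and 4638. H60b alone also crossed in the high tumours of animals 4150 and 4516, and Raet1e alone in that of animal 4378. Raet1d and Raet1e are close copies, with 61.7% of the 36-base windows of Raet1d also in Raet1e, whereas H60b had 2.01% of its windows in common with Raet1e. Among the 20 tested genes around Raet1e on chromosome 10, 6 had an unadjusted p under 0.05, H60b and Raet1d included, against 18.4% of the tested genes of chromosome 10. Klrk1, which encodes NKG2D, had too low a level to be tested, with medians of 0.19 RPKM in low and 0.207 RPKM in high tumours. The 7 T cell markers together had 14.2 to 60.4 RPKM with a median of 19 in low tumours and 14.5 to 79.5 RPKM with a median of 24.7 in high tumours, and none of the 5 tested passed. The part of these cells in the differences was not tested.

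**Figure D5:**
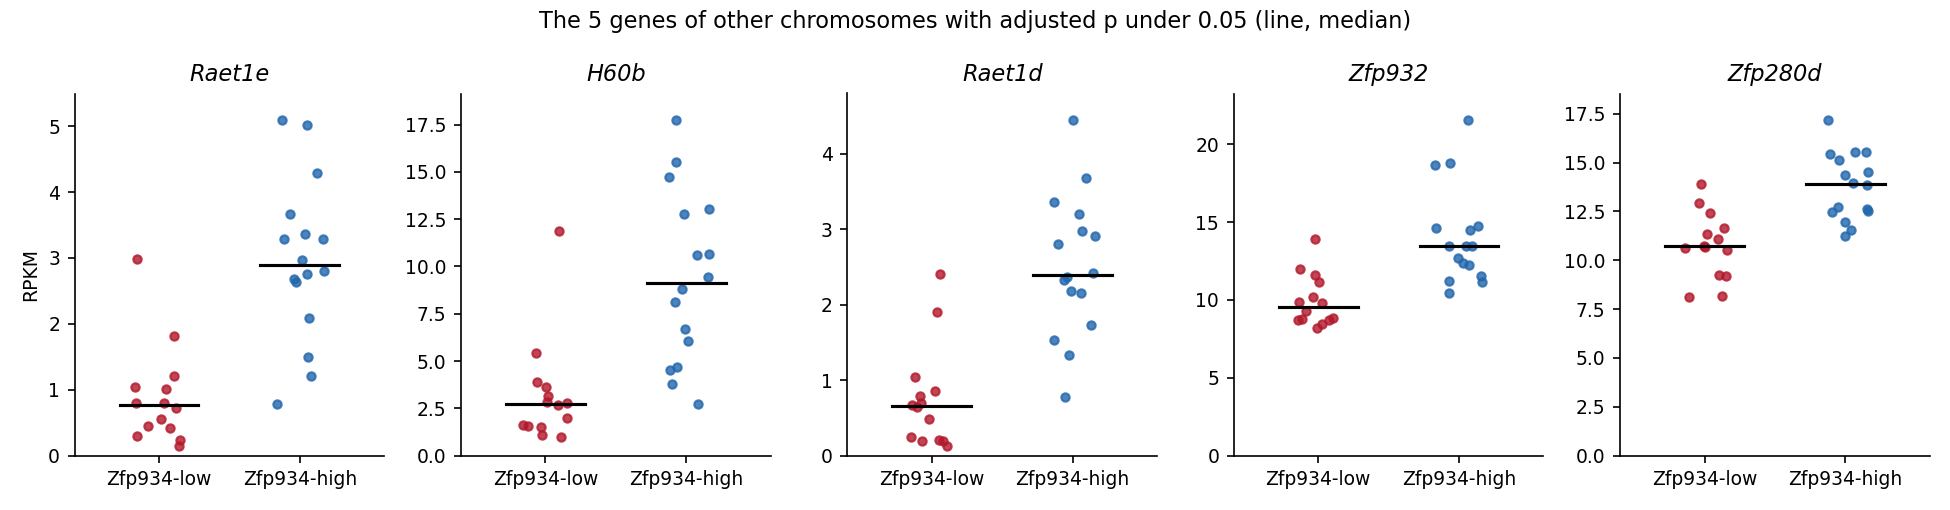
RPKM of the 5 genes of other chromosomes at an adjusted p under 0.05, with each tumour as a point, the 14 Zfp934-low tumours left and the 16 Zfp934-high tumours right, and the median as a line. All 5 are lower in the low tumours, with medians of 0.66 and 2.39 RPKM for Raet1d in low and high tumours, and the low tumour of animal 4638 lies above the median of the high tumours for the 3 genes of chromosome 10.

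Each of the 13 genes kept its direction within the deep and within the shallow libraries. H4c9 differed by 0.68 ± 0.19 in the deep and 0.73 ± 0.13 in the shallow libraries, and Zfp935 by -0.35 ± 0.11 and -0.46 ± 0.11. H60b differed by -1.87 ± 0.26 in the deep and -0.91 ± 0.36 in the shallow libraries, and Sirt5 by -0.19 ± 0.11 and -0.54 ± 0.11. After adjustment, Raet1d, Raet1e and H60b passed in the deep libraries, where no chromosome 13 gene did, and no gene passed in the shallow ones (limma). In those smaller sets 1306 and 1479 genes had an unadjusted p under 0.05. The shares in the deep libraries were 14.3% on chromosome 13 and 9.43% on the other chromosomes. In the shallow libraries they were 22.9% and 10.4%.

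How many genes passed depended on the tumours. With each tumour left out in turn, 6 of the 13 genes (Raet1d, Raet1e, H60b, H4c9, Zfp935 and Lman2) passed in all 30 fits, and the number over all genes lay between 6 and 42. It was 42 without animal 4020, 36 without animal 4164 and 20 without animal 4036 or 4461. It was 6 without animal 4139, 4315, 4511 or 4516, 7 without animal 3273, 3427, 3540, 3654, 4030, 4042, 4144 or 4638, and 8 without animal 4438 or 4459. Simc1 passed in 22 of the 30 fits, Eci3 in 19, Zfp932 in 15, F13a1 in 11, Sirt5 in 9, and Zfp280d and Pcbd2 in 7 each. Without animals 4150 and 4511 together, 9 genes passed, 5 on chromosome 13 and 4 elsewhere, and the zinc finger genes with an unadjusted p under 0.05 were 13 of 29 on chromosome 13 and 97 of 285 elsewhere, against 2512 of all 13610 genes. With the Zfp934 level as a continuous value in place of the split, 573 genes passed, the 13 among them, of which 68 were on chromosome 13 (14.7% of those tested) and 505 elsewhere (3.84%).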

How the data were processed

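RNA of 30 tumours, 1 per animal, was poly-A selected and made into libraries, with fragments chosen by size on a gel. The table the authors deposited holds RPKM values in 27902 RefSeq transcript rows and a column per animal. The unit was inferred from the steps of the values. The submitters' processing notes name CASAVA 1.7.0. Aligner settings, build and read length have no mention in the sources used here.

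Rows were named with the RefSeq gene table of GRCm38.p6 (27157 rows), used for names and the order of genes only, and GENCODE vM21 (146). The 599 rows without a name held 1.61% of the summed RPKM and were left out, as were 904 small RNA rows. The row with the highest mean was used for each of the 3511 genes with several, leaving 20834 genes, and 391 of them shared their values with another gene. Depth was recovered from low values of transcripts of 150 to 2500 bases. Per library, 43.3 to 84.1% of them came within 0.12 of whole reads (24% if values were spread evenly), too few for a count test. Deep and shallow classes were set with the file in view.

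Genes averaging 1 RPKM or more were tested on the log2(RPKM + 1) scale, where fold changes of weakly expressed genes come out too small. Low minus high tumours was fitted in R 4.3.3 with limma 3.58.1 (two-sided, eBayes with a trend) and Benjamini-Hochberg adjustment over all 13610 genes. Each error in the text after ± is the SE unless SD is named. P-values measure the spread between animals. Zfp934 was not tested. The members, lists and tests were chosen with earlier results of these data known. Named genes were up to 16 chromosome 13 and 12 other genes with the smallest adjusted p among those that passed, zinc finger genes within 20 genes of Zfp934, the nearest 5 tested genes on each side and the corepressors. The other zinc finger genes, Pde8b and Klrk1 were named after their values were seen. Shared sequence was counted as windows of GENCODE vM21 transcripts. Python 3.11.15, numpy 2.4.6, scipy 1.17.1, pandas 2.3.3 and matplotlib 3.10.9 were used. The fit was also run on simulated data with independent normal noise for each gene, which leaves out correlation between genes.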

Additional observations from a re-analysis of the deposited data

How the results depend on the processing

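No paired analysis was possible because the labels place the 30 tumours in 1 group, with no replicate numbers shared between groups. The number of genes at an adjusted p under 0.05 (limma, Benjamini-Hochberg) was 13 in all, 8 on chromosome 13, 5 elsewhere and 1 among the zinc finger genes of chromosome 13. With Zfp934 as a continuous value these were 573, 68, 505 and 11, and 1016, 84, 932 and 11 when animals 4150 and 4511 were also left out, an alternative chosen after seeing the data. With the split, leaving out those 2 gave 5 on chromosome 13. The deep libraries alone gave 3, 0, 3 and 0, and the shallow ones 0 in each, with fewer tumours in both. Without the 2 tumours nearest the threshold there were 4 on chromosome 13 and 2 zinc finger genes. Elsewhere there were 3 with a mean of at least 5 RPKM, 3 with no filter and 8 with insert size as a covariate. The zinc finger genes numbered 2 with insert size or depth class as a covariate. The cause of these changes was not tested. Leaving out 1 tumour at a time gave 6 to 42 in all, 3 to 17 on chromosome 13, 3 to 25 elsewhere and 1 to 2 zinc finger genes. The 13 genes kept their direction under each alternative in which they were tested. Genes that had not passed changed sign in places. Ctla2a was at 0.0424 in the deep libraries, 0.0467 with the continuous value, 0.061 with that value and without animals 4150 and 4511, 0.0050 without the 2 tumours nearest the threshold, and -0.0958 to 0.0286 with 1 tumour left out. Ptch1 was at -0.32 in the deep libraries, -0.0806 without animals 4150 and 4511 under the split and -0.079 under the continuous value, and -0.0665 to 0.0873 with 1 tumour left out. Cbx1 was at 0.0644 and Hdac1 at 0.0325 in the deep libraries, Hdac1 at -0.0249 to 0.0219 with 1 tumour left out, and Atf7ip at 0.0765 in the shallow libraries. Quantile normalization moved the median difference of all genes from -0.0204 to -0.0117. Of the 285 tested zinc finger genes of other chromosomes, 79 then had an unadjusted p under 0.05, against 102 without it. Of these, 61 of the 79 and 87 of the 102 were lower in low tumours. Over all genes at this unadjusted p, 1165 of 1955 were lower after quantile normalization, against 1350 of 2058 without it.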
